A study of Drosophila melanogaster with 34 samples.

Results

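UDP-glycosyltransferases (UGTs) are the enzymes that join a sugar to small fat-soluble molecules, and in Drosophila melanogaster the family is named Ugt, with a number for the subfamily. Members were all probe sets of an Affymetrix array whose single annotated gene symbol begins with Ugt. There were 35, 1 for each of the 35 Ugt genes of the RefSeq gene table, in 13 subfamilies. A member was tested if its log2 expression value was at least 4 on at least 5 of the 34 arrays, which 27 members of 12 subfamilies met, among 9729 tested probe sets of 18769 on the array.

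The arrays came from 6 laboratory populations founded from the same outbred base stock and kept for more than 300 generations in 1 of 3 regimes. Populations R1 and R2 lived on standard cornmeal-molasses medium (control regime), E1 and E2 on the same medium with 12% ethanol (ethanol regime), and in M1 and M2 the vials of each generation were divided equally between both media (variable regime). Flies of all populations were reared on standard medium before laying. Their eggs, on agar, were then covered for 15 h with distilled water or with 18% ethanol, which the submitters put at about 12% after mixing with the agar. RNA was taken from pools of 50 to 200 newly hatched first-instar larvae, in 3 extraction blocks on different days. The number ending each sample title, 1, 2 or 5, was read as the day, which no label states directly. Each of the 12 combinations of population and exposure had 3 arrays, except the water-exposed M1 and the ethanol-exposed M2 larvae, with 2 each. The comparisons ask how the larvae responded to ethanol, whether that response or the level of the genes differed between regimes, and how far sister populations of a regime differed. A regime is represented by 2 populations. Whether the arrays of a population stem from separate cultures is not stated, so the tests of exposure and of sister populations are set against the variation among RNA samples, which may be technical.

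UGTs sit in the membrane of the endoplasmic reticulum and take the sugar from a UDP-sugar, in insects mostly UDP-glucose. The conjugates are more soluble in water and leave the cell through membrane transporters, so the family counts among the enzymes of detoxification, with midgut, fat body and Malpighian tubules as the main known sites in flies. Some UGTs act on the body's own molecules or on odorants. Ethanol itself is cleared in flies mainly by alcohol dehydrogenase, and in mammals a small part of it is conjugated by UGTs. Individual substrates are not known for most of the fly enzymes, and roles are given below only where they are well established.

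Some arrays stood apart from their labels. The deviations of each array from the mean of its exposure and day, over all tested probe sets, were correlated with those of each population. Among the 22 arrays of days 1 and 2, compared with each other, 20 were closest to the population on their label, among them 13 of the 14 arrays of M and E populations. All 4 control arrays of day 5 also matched their label. Of the 8 arrays of day 5 labelled M1, M2, E1 or E2, only 1 matched its own population, and 7 were closest to the population with the same number in the other of these regimes. The labels were kept as deposited, and the counts of calls and the responses that these 8 arrays moved or decided are also given without them. In addition, the ethanol-exposed R2 array of day 1 had the largest spread around its fitted values, with a residual SD of 0.261 over all tested probe sets, against a median of 0.189 over arrays. Among the arrays of days 1 and 2 it was closest to E2. When arrays of day 5 were also compared, it was closest to R2. Array medians lay between 3.89 and 4.02 on the log2 scale.

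Signal of the family in the hatchlings was counted against the detection level of 4. Of the 35 members, 19 had a value of 4 or more on every array and 9 had a median of 8 or more. On a single array, 9273 to 9400 of all 18769 probe sets reached 4. How many of all probe sets did so on every array was not counted. The 8 members that did not reach the filter were Ugt301D1, Ugt302K1, Ugt303B2, Ugt35D1, Ugt36E1, Ugt36F1, Ugt37A1 and Ugt37E1; 5 of them were below 4 on every array, and the highest value among them was 4.47. Ugt36E1, known for a role in the discrimination of sex pheromones by adult flies, lay just outside the filter with 2 arrays at 4 or more. Ugt317A1 lay just inside it with 8. Ugt317A1 reached 4 on 1 water and 7 ethanol arrays and Ugt37A2 on 4 and 9, so that both passed the filter only with the ethanol arrays, where Ugt317A1 is high. Values of different probe sets depend on their probes and were not compared with each other.

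**Figure D1:**
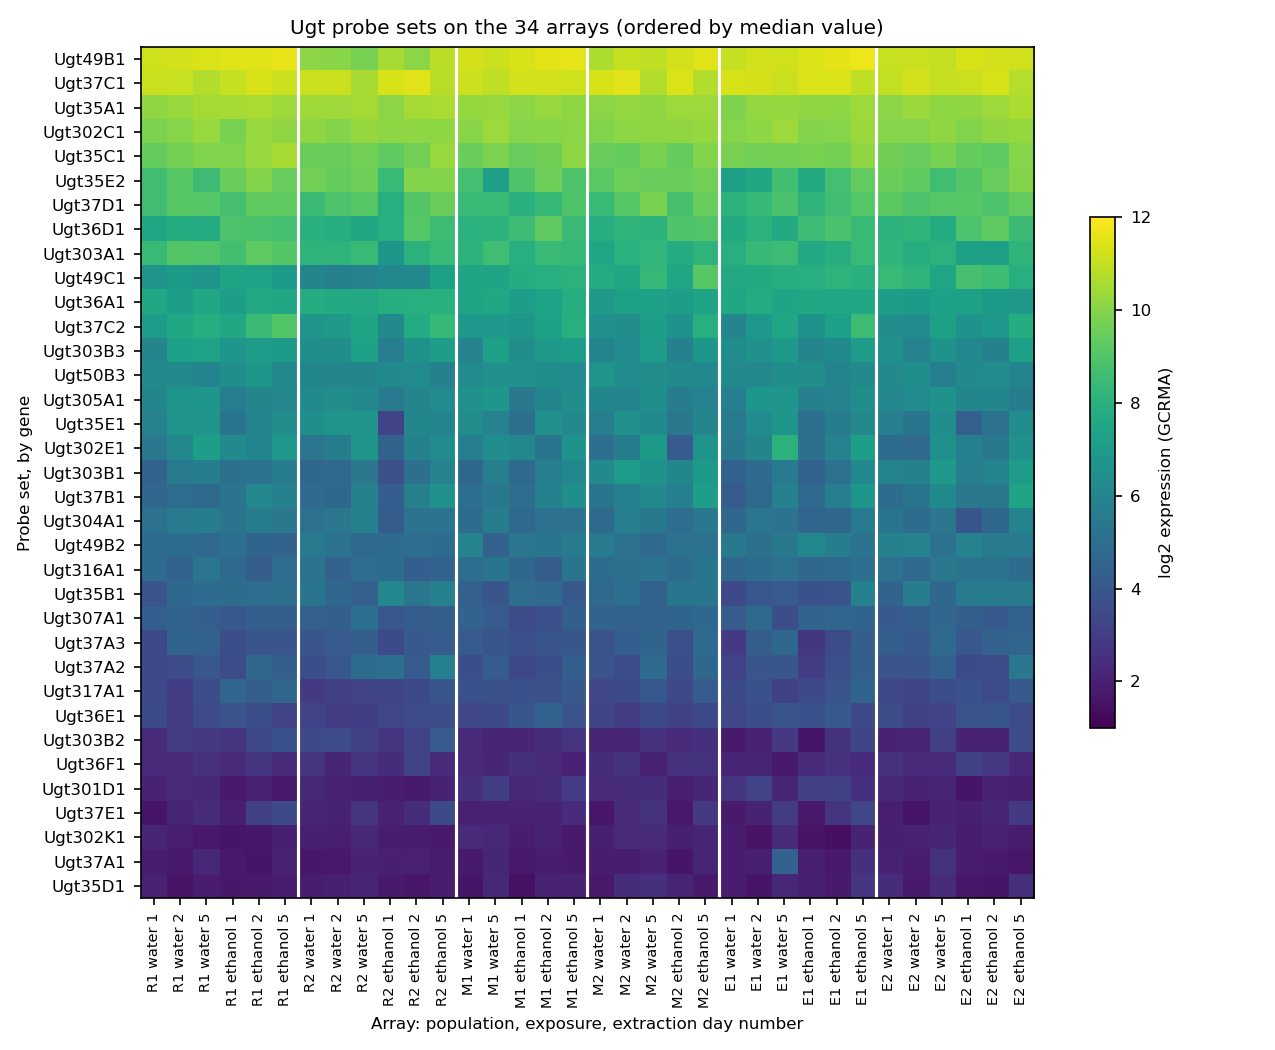
Log2 expression (colour) of the 35 Ugt probe sets (vertical axis, sorted by median for display) on the 34 arrays (horizontal axis: population, exposure and number of the extraction day). White lines separate the populations. The 8 members at the bottom, from Ugt36E1 down, were not tested, and Ugt49B1 at the top is darker on the 6 arrays of R2.

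Ethanol raised 9 of the 27 tested members and lowered 2, while 16 did not pass the test (limma, adjusted p under 0.05 over all tested probe sets). The 11 called members are 40.7% of those tested, against 31.2% of all probe sets tested; 15.2% of all probe sets were higher and 16.0% lower. The median size of the response was 0.21 over the members and 0.11 over all probe sets, on the log2 scale, and 17 of the 27 members had a positive value, against 50% of all probe sets. Among the 25 members that reach 4 on at least 5 arrays of each exposure, 10 were called, 8 higher and 2 lower. The share of all probe sets under this stricter rule was not counted, so these 10 have no matched background. Without the 8 arrays of day 5, the split was 5 higher and 4 lower, 9 called against 25.4% of all probe sets, with 7 of them also called on all arrays. Over all arrays Ugt36D1, Ugt37B1, Ugt35B1 and Ugt37C2 had the largest rises, and Ugt35E1 and Ugt305A1 fell. In RNA from whole larvae, fewer cells that express a gene and less RNA in each of them cannot be told apart.

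**Figure D2:**
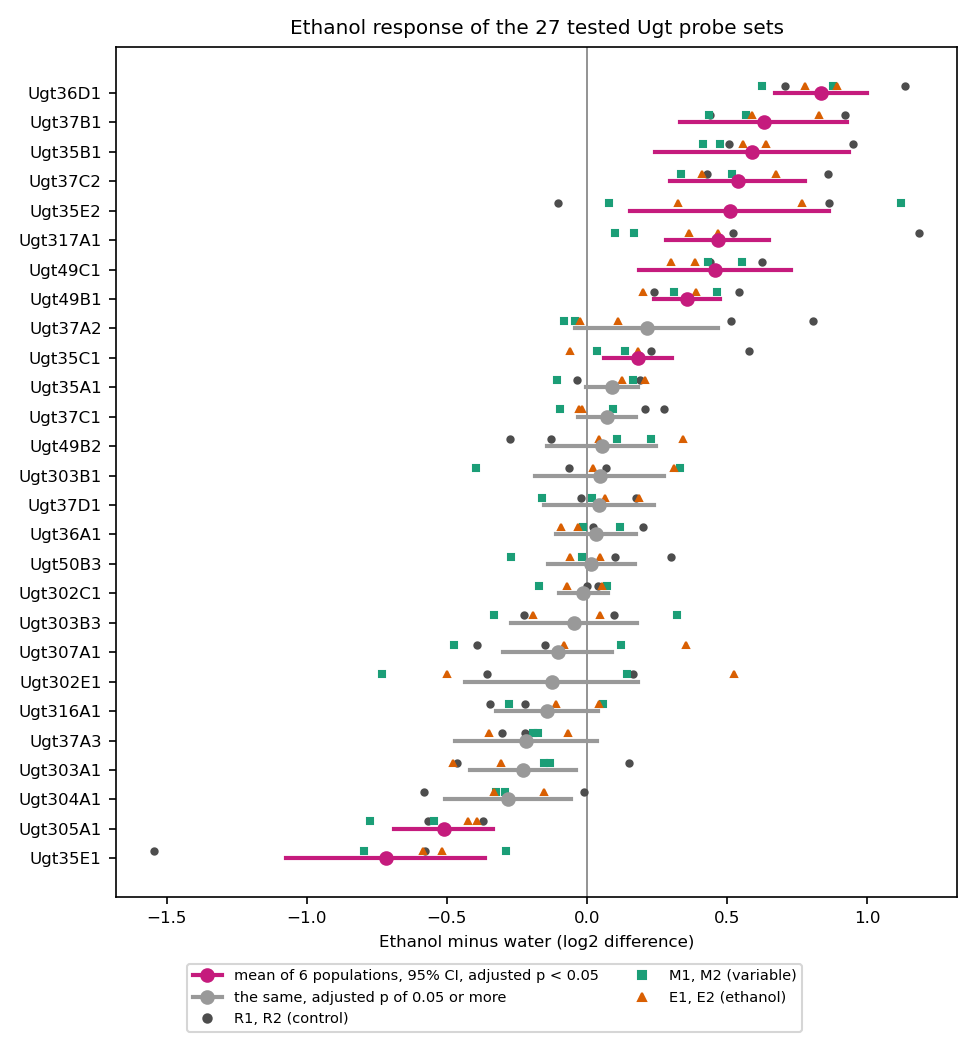
Ethanol-minus-water log2 difference (horizontal axis) of the 27 tested Ugt probe sets (vertical axis). Large points with bars are the mean over 6 populations with its 95% confidence interval, magenta where the adjusted p is under 0.05, and small symbols are the single populations. All 6 populations lie above 0 for Ugt36D1 and below 0 for Ugt35E1 and Ugt305A1.

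In subfamily 36, Ugt36D1 had the largest response of the family. Its values were 7.48 to 8.20 with a median of 7.87 on the 17 water arrays, and 7.89 to 9.32 with a median of 8.84 on the 17 ethanol arrays. All but 1 of the ethanol arrays were above every water array: the ethanol-exposed R2 array of day 1, at 7.89, lay among the water values. The mean was 7.90 ± 0.21 (SD, n = 17) after water and 8.76 ± 0.35 after ethanol. The difference was 0.84 ± 0.08 on the log2 scale (± is the standard error here and below unless SD is stated; adjusted p = 9.43e-09), which is 1.79-fold. It was positive in 15 of the 16 pairs of water and ethanol arrays of the same population and day, and it ran from 0.63 in M1 to 1.14 in R1. Leaving out the 8 arrays of day 5 gave 0.85 ± 0.10 (adjusted p = 4.38e-06). The gene lies between Ugt36F1 and Ugt36E1 on chromosome arm 2L, with no other protein-coding gene between them in the RefSeq table, and neither neighbour was tested. The other tested member of the subfamily, Ugt36A1, had a response of 0.03, which did not pass the test.

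Subfamily 37 had 6 tested members, of which 2 rose and 4 did not pass the test. Ugt37B1 ranged from 4.21 to 6.25 with a median of 5.03 after water and from 4.29 to 7.41 with a median of 5.78 after ethanol. The groups overlapped over much of their range, and the values also differed between days. Within a population and day, ethanol was higher in 14 of 16 pairs, and the response was 0.63 ± 0.15 (adjusted p = 0.00153). Ugt37C2 ranged from 6.03 to 7.85 after water and from 6.21 to 8.99 after ethanol, with medians of 6.91 and 7.58 and a response of 0.54 ± 0.12 (adjusted p = 0.00085), higher in 14 of 16 pairs. Both responses were smaller without the 8 arrays of day 5, at 0.40 (adjusted p = 0.0664) for Ugt37B1 and 0.34 (adjusted p = 0.0659) for Ugt37C2, and then missed the threshold. Ugt37C2, Ugt37E1 and Ugt37D1 are direct neighbours on arm 2L. Ugt37D1 had a response of 0.04 that did not pass the test, and Ugt37E1 was not tested. Of the remaining members, Ugt37A2 was at 0.21 and Ugt37C1, which stayed between 10.6 and 11.5 on all arrays, at 0.07; neither passed the test. Ugt37A3, the direct neighbour of Ugt37A2 on arm 3R, was at -0.22 (adjusted p = 0.188), negative in all 6 populations, and at -0.35 (adjusted p = 0.0476) without the 8 arrays of day 5.

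Subfamily 35 moved in both directions. Of its 5 tested members, 3 rose, 1 fell and Ugt35A1, at 0.09, did not pass the test. Ugt35E1, Ugt35E2, Ugt35B1, Ugt35A1, Ugt304A1 and Ugt303A1 follow each other in this order on arm 3R with no other protein-coding gene between them. At the start of this run, Ugt35E1 and Ugt35E2 had responses of opposite sign.

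Ugt35E1 ranged from 5.29 to 6.76 with a median of 6.39 after water and from 3.28 to 6.59 with a median of 5.97 after ethanol. It fell by 0.72 ± 0.17 on the log2 scale (adjusted p = 0.00218), was lower in 15 of 16 pairs and was lower in all 6 populations. The lowest value, 3.28, was that of the ethanol-exposed R2 array of day 1, and without that array the response was -0.59 (adjusted p = 0.00196). Without all arrays of day 1 it was -0.35 and missed the threshold (adjusted p = 0.0974), and without the 8 arrays of day 5 it was -0.95 (adjusted p = 0.0017). Ugt35E2 ranged from 7.19 to 9.68 after water and from 7.71 to 9.96 after ethanol, with a response of 0.51 ± 0.17 (adjusted p = 0.0258), higher in 13 of 16 pairs. Without the 8 arrays of day 5 it was 0.27 (adjusted p = 0.159). This call therefore needed these 8 arrays. The label check compared populations only, and the exposure on the labels of these arrays was not checked.

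Ugt35B1, whose transcript is known from the olfactory organ of adult flies, ranged from 3.42 to 5.68 with a median of 4.50 after water and from 3.76 to 6.08 with a median of 5.26 after ethanol. Its response was 0.59 ± 0.17 (adjusted p = 0.00877), positive in 14 of 16 pairs and in all 6 populations, from 0.41 in M1 to 0.95 in R2. It was 0.45 without the 8 arrays of day 5 (adjusted p = 0.0389). Of 5 genes taken as markers of the olfactory organ, 1 was tested, and it did not pass the test. Ugt35C1, apart from the run on the same arm, had the smallest rise that was called, 0.18 ± 0.06 (adjusted p = 0.0201), and without the 8 arrays it was 0.10 (adjusted p = 0.347). Next in the run, Ugt304A1 was at -0.28 ± 0.11 (adjusted p = 0.0509) and Ugt303A1 at -0.23 (adjusted p = 0.0588), just outside the threshold. With the 8 arrays of day 5 left out, Ugt304A1 was at -0.41 (adjusted p = 0.0113).

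In subfamily 49, Ugt49B1 and Ugt49C1, direct neighbours on arm 2R, both rose. Ugt49B1 was higher after ethanol in all 16 pairs, with values of 9.76 to 11.4 after water and 10.1 to 11.7 after ethanol. Its response was 0.36 ± 0.06 (adjusted p = 2.28e-05), from 0.20 in E2 to 0.54 in R2. Ugt49C1 ranged from 5.81 to 8.45 after water and from 6.14 to 9.13 after ethanol, was higher in 15 of 16 pairs and had a response of 0.46 ± 0.13 (adjusted p = 0.00972). With the 8 arrays of day 5 left out, the responses were 0.30 (adjusted p = 0.00561) for Ugt49B1 and 0.35 (adjusted p = 0.0253) for Ugt49C1. For both genes the exposure groups overlapped. The populations, with more groups than the exposures, took a larger share of the variation than these. The third member, Ugt49B2 on arm 3R, had a response of 0.05 that did not pass the test.

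The remaining subfamilies had 1 to 3 tested members each. Ugt317A1 rose by 0.47 ± 0.09 (adjusted p = 0.000225) from a mean of 3.43 ± 0.31 (SD, n = 17) to 3.92 ± 0.43, close to the detection level, and was higher in 13 of 16 pairs. It was tested only through its ethanol arrays, so its rise is given as a description. Ugt305A1 ranged from 5.76 to 6.84 with a median of 6.45 after water and from 5.39 to 6.44 with a median of 5.99 after ethanol. It fell by 0.51 ± 0.09 on the log2 scale (adjusted p = 4.13e-05), was lower in 14 of 16 pairs and had a response between -0.77 in M1 and -0.37 in R2. Leaving out the 8 arrays of day 5 gave 0.33 (adjusted p = 0.013) for Ugt317A1 and -0.52 (adjusted p = 0.000867) for Ugt305A1. No tested member of subfamilies 50, 302, 303, 304, 307 and 316 passed the test, among them Ugt50B3 at 0.02 and Ugt302C1, which stayed between 9.80 and 10.4 on all arrays, at -0.01.

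**Figure D3:**
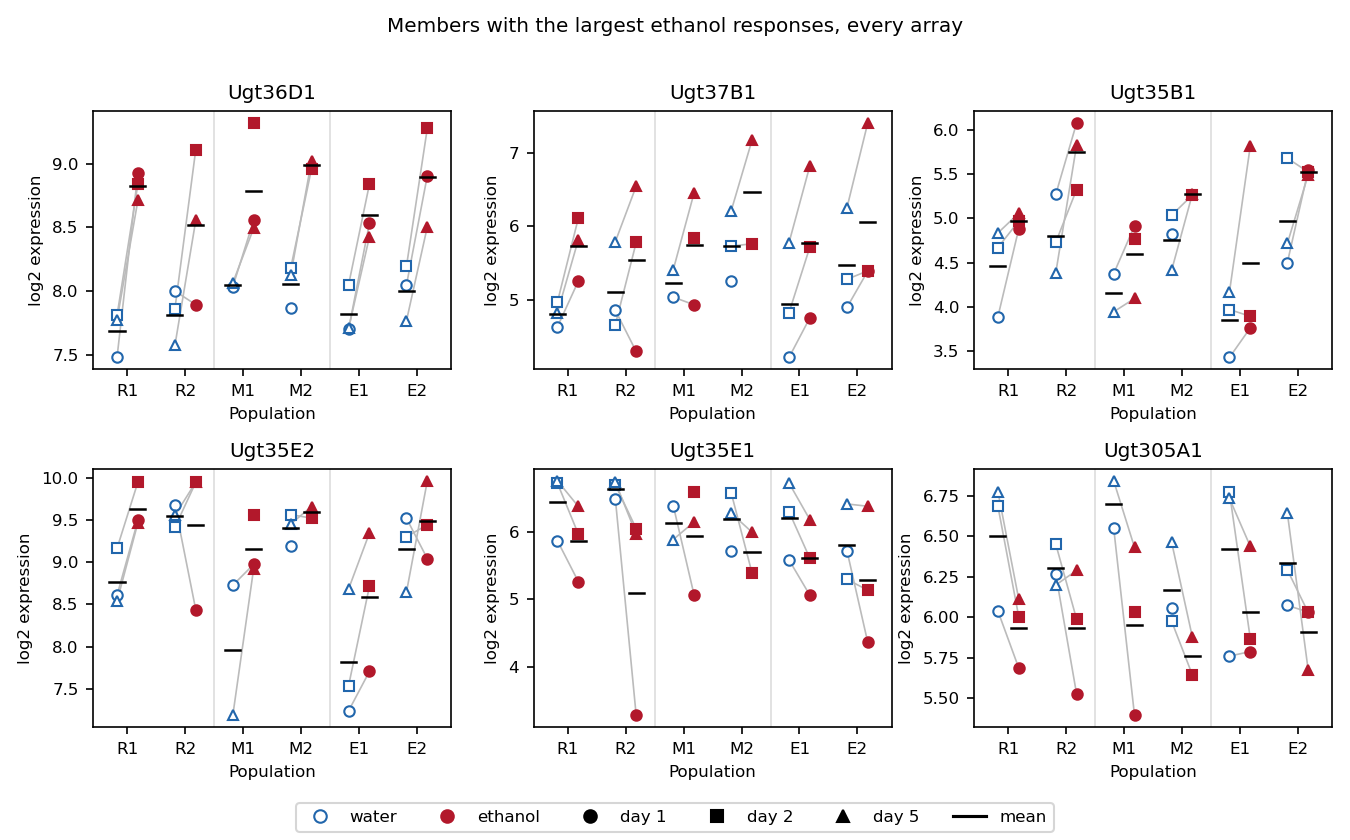
Log2 expression (vertical axes) of 6 Ugt probe sets with large ethanol responses on every array, by population (horizontal axes). Open blue symbols are water, filled red symbols ethanol, the shape gives the extraction day, grey lines join arrays of the same day and bars are means. Ugt36D1 shows rising lines in 15 of 16 pairs, and the ethanol-exposed R2 array of day 1 is the lowest point of Ugt35E1, at 3.28.

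The estimated size of several responses was not the same when each extraction day was fitted alone. Days 1, 2 and 5 had 5, 5 and 6 pairs, without M2 on day 1 and without M1 on day 2. On days 1, 2 and 5 the response of Ugt37B1 was 0.20 ± 0.19, 0.66 ± 0.18 and 1.00 ± 0.10, and that of Ugt37C2 was 0.15 ± 0.17, 0.59 ± 0.12 and 0.91 ± 0.10. Ugt35E2 was at -0.02 ± 0.26, 0.52 ± 0.15 and 0.87 ± 0.17. Ugt35E1 was at -1.41 ± 0.34, -0.69 ± 0.14 and -0.29 ± 0.14. The day 1 values include the R2 pair with the array that stood apart. Over the other 4 pairs of day 1 the responses were 0.39 ± 0.16 for Ugt37B1, 0.32 ± 0.14 for Ugt37C2, 0.28 ± 0.19 for Ugt35E2 and -0.95 ± 0.18 for Ugt35E1. Leaving out this pair turned the sign of the day 1 value of Ugt35E2 and raised those of Ugt37B1 and Ugt37C2, and the difference between days was not tested. Ugt36D1 was at 0.71 ± 0.19, 0.99 ± 0.09 and 0.78 ± 0.10, and Ugt305A1 at -0.45 ± 0.18, -0.53 ± 0.12 and -0.47 ± 0.14, and over the other 4 pairs of day 1 they were at 0.91 ± 0.15 and -0.38 ± 0.20. The label check above put the population of 8 arrays of day 5 in doubt and did not examine their exposure. In the day 5 pairs of R1 and R2, whose arrays matched their label, Ugt37B1 was at 0.99 and 0.76 and Ugt37C2 at 1.14 and 0.95. In the same pairs Ugt35E2 was at 0.93 and 0.39 and Ugt35E1 at -0.38 and -0.77. The cause of the larger values of that day was not tested.

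Within the regimes, the counts of called members differed, as did those of all probe sets. In the control populations 9 members passed the test, 7 higher and 2 lower, against 18.1% of all probe sets, 7.96% higher and 10.1% lower. In the variable populations 3 did, against 6.84%, and in the ethanol populations 1 did, against 8.43%. Of the members that reach 4 on at least 5 arrays of each exposure, 7 of 25 passed in the control populations, 5 higher and 2 lower. The share of all probe sets under that rule was not counted. In the variable populations 1 member was called without the 8 arrays of day 5, against 3.29%, and in the ethanol populations 4 were called without the ethanol-exposed R2 array of day 1, against 8.90%. That R2 array is no sample of the ethanol regime and enters through the day term and the estimate of spread. Ugt36D1 was called in each regime, at 0.92 ± 0.13 (adjusted p = 1.59e-05) in the control, 0.75 ± 0.15 (adjusted p = 0.00201) in the variable and 0.84 ± 0.13 (adjusted p = 0.000119) in the ethanol populations. When the 8 arrays of day 5 were left out, its value in the variable populations was 0.74 and missed the threshold (adjusted p = 0.0597). Ugt49B1 was called in the control populations at 0.39 ± 0.09 and in the variable populations at 0.39 ± 0.11, and Ugt305A1 at -0.47 ± 0.14 and -0.66 ± 0.16. In the variable populations without the 8 arrays, Ugt49B1 was at 0.26 and missed the threshold (adjusted p = 0.42), and Ugt305A1 was at -0.78 (adjusted p = 0.0472). The other members called in the control populations were Ugt317A1 at 0.85 ± 0.15, Ugt37A2 at 0.66 ± 0.21, Ugt37C2 at 0.65 ± 0.19, Ugt35C1 at 0.40 ± 0.10, Ugt37C1 at 0.24 ± 0.08 and Ugt35E1 at -1.06 ± 0.29. Ugt317A1 and Ugt37A2 passed the filter only with their ethanol arrays, so their rises are given as a description. Without the ethanol-exposed R2 array of day 1, 7 members were called there, against 15.4% of all probe sets; Ugt35E1 was then at -0.72 (adjusted p = 0.0398), and Ugt37A2 (adjusted p = 0.0887), Ugt37C1 (adjusted p = 0.092) and Ugt305A1 (adjusted p = 0.054) missed the threshold.

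No difference in the response between regimes was called for any member, and 0% of all probe sets were called in limma's test of the ethanol or the variable against the control populations, with 2 populations a regime. At an unadjusted p under 0.05, 3 members differed between ethanol and control populations, against 4.05% of all probe sets, and 3 between variable and control populations, against 5.44%. Ugt37A2 was among them in both and, like Ugt317A1 below, passed the filter only with its ethanol arrays. Its response was 0.52 in R1 and 0.81 in R2, and between -0.08 and 0.11 in the other 4 populations. The R2 pairs of days 1, 2 and 5 were at 1.38, 0.18 and 0.87, the first with the array that stood apart. The difference from the control populations was -0.62 ± 0.21 for the ethanol regime (adjusted p = 0.9997) and -0.72 ± 0.21 for the variable regime (adjusted p = 0.776). Ugt37C1 differed by -0.26 ± 0.10 and -0.24 ± 0.10, Ugt35C1 by -0.34 ± 0.15 in the ethanol regime, and Ugt317A1 by -0.72 ± 0.25 in the variable regime. A negative value is a smaller response than in the control populations, which both comparisons share, and none of these values passed the adjustment. For Ugt36D1 the difference was -0.09 in the ethanol regime, with a 95% confidence interval of -0.48 to 0.30. That interval leaves room for a response of about the same size, for a clearly smaller one and for a larger one.

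No member was called in the level between regimes either, and 0% of all probe sets were called in limma's test, for ethanol against control, variable against control and ethanol against variable populations. At an unadjusted p under 0.05 there were 3, 4 and 0 members, against 9.46%, 7.42% and 1.27% of all probe sets. Ugt49C1 had the largest difference. On the 12 control arrays it ranged from 5.81 to 7.42 with a median of 6.73, and on the 22 arrays of the M and E populations from 7.41 to 9.13 with a median of 7.88. Of those 22 arrays, 21 were above every control array. The ethanol populations were 1.42 ± 0.32 above the control populations on the log2 scale (95% confidence interval 0.62 to 2.23, adjusted p = 0.482), and the variable populations 1.26 ± 0.32 (adjusted p = 0.668). The 2 control populations themselves differed by 0.82, and without R2 the difference of the ethanol populations was 1.01, without R1 1.83. The values of the 2 regimes were 1.60 and 1.04 without the 8 arrays of day 5.

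Ugt49B2, of the same subfamily but on another chromosome, was 0.65 ± 0.13 higher in the ethanol than in the control populations (adjusted p = 0.482) and 0.34 ± 0.13 higher in the variable populations (adjusted p = 0.668). Its population means were 4.76 in R1, 5.03 in R2, 5.31 in M1, 5.13 in M2, 5.48 in E1 and 5.62 in E2. Both control populations were the lowest, but arrays of neighbouring populations overlapped. Ugt35A1 was lower by small amounts, at -0.20 ± 0.06 and -0.17 ± 0.06, and Ugt36D1 was 0.28 ± 0.10 higher in the variable than in the control populations. A fit that took arrays in place of populations as replicates called 8 members between the ethanol and control regimes, against 12.4% of all probe sets. Such a fit leaves out the spread between populations of a regime.

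Populations as such did differ in the family. The test of any difference among the 6 populations called 12 members, 44.4% of those tested, against 22.0% of all probe sets, and 13 without the 8 arrays of day 5, against 21.1%. The 12 were Ugt49B1, Ugt49C1, Ugt49B2, Ugt303B1, Ugt303A1, Ugt36A1, Ugt37C2, Ugt37D1, Ugt37A2, Ugt35E2, Ugt35B1 and Ugt35C1. All 3 members of subfamily 49 are among them, and none of subfamilies 50, 302, 304, 305, 307, 316 and 317.

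The control populations differed in 8 members, 6 lower and 2 higher in R2 than in R1, against 8.09% of all probe sets, 4.20% lower and 3.89% higher. Ugt49B1 stood apart: its 6 R2 arrays lay between 9.76 and 10.9 with a median of 10.1, and its 6 R1 arrays between 11.2 and 11.6 with a median of 11.4. The groups did not overlap, and arrays of the other 4 populations lay between 10.6 and 11.7. The difference was -1.18 ± 0.09 (adjusted p = 6.5e-09), which is 2.26-fold. The neighbouring Ugt49C1 was also lower in R2, at -0.82 ± 0.22 (adjusted p = 0.0185), with R2 arrays between 5.81 and 7.25 and R1 arrays between 6.70 and 7.42. Ugt303A1 was at -0.91 ± 0.15 (adjusted p = 0.000224), with a median of 9.03 in R1 and 8.15 in R2, and its lowest array, at 6.83, was the ethanol-exposed one of day 1. Ugt37C2, Ugt317A1 and Ugt35C1 were lower by 0.31 to 0.69, and Ugt36A1 and Ugt37A2 were higher by 0.38 and 0.65. Without the ethanol-exposed R2 array of day 1, 3 members were called, Ugt49B1 at -1.20, Ugt303A1 at -0.74 and Ugt317A1 at -0.56, against 5.63% of all probe sets.

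Ugt303B1 differed between both pairs of sister populations outside the control regime. M2 was 1.06 ± 0.21 above M1 (adjusted p = 0.00283) in the only call among the members for that pair, against 3.67% of all probe sets. The 5 M2 arrays were at 6.27, 7.02, 6.59, 6.06 and 6.96, and the 5 M1 arrays at 4.70, 5.72, 4.76, 5.68 and 6.14. Only the highest M1 array, labelled day 5, reached into the M2 range. E2 was 1.15 ± 0.18 above E1 (adjusted p = 0.000168), with E2 arrays between 5.70 and 7.04 and E1 arrays between 4.40 and 6.13. In R1 and R2 the gene had medians of 5.38 and 4.92. Without the 8 arrays of day 5 the differences were 1.11 (adjusted p = 0.0404) between M2 and M1 and 1.14 (adjusted p = 0.00162) between E2 and E1. Ugt303B3 and Ugt303B2 lie on each side of it on arm 3R; the first was called in neither pair and the second was not tested.

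Between E2 and E1, 6 members were called, 5 higher and 1 lower in E2, against 11.0% of all probe sets, 4.96% higher and 6.04% lower. Beside Ugt303B1, the neighbours Ugt35E2 and Ugt35B1 were higher by 1.11 ± 0.29 (adjusted p = 0.0115) and 1.07 ± 0.28 (adjusted p = 0.0129). Ugt35E2 was at 7.24, 7.54, 8.68, 7.71, 8.71 and 9.34 on the E1 arrays, with both values of day 5 the highest of their exposure, and at 9.52, 9.30, 8.65, 9.04, 9.44 and 9.96 on the E2 arrays. Without the 8 arrays of day 5 the differences were larger, at 1.52 (adjusted p = 0.000154) for Ugt35E2 and 1.55 (adjusted p = 0.000376) for Ugt35B1. In that setting 7 members were called, against 11.7% of all probe sets, with Ugt49C1 added at 0.62 (adjusted p = 0.0344). Ugt37A3 was higher in E2 by 0.63 ± 0.20 and Ugt37D1 by 0.58 ± 0.16, and Ugt36A1 was lower, at -0.48 ± 0.12 (adjusted p = 0.00762). Without the 8 arrays these were 0.86, 0.75 and -0.52, and all 3 were still called. Ugt36A1 was thus higher in R2 than in R1 and lower in E2 than in E1, over a range of means from 7.09 in E2 to 7.82 in R2.

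**Figure D4:**
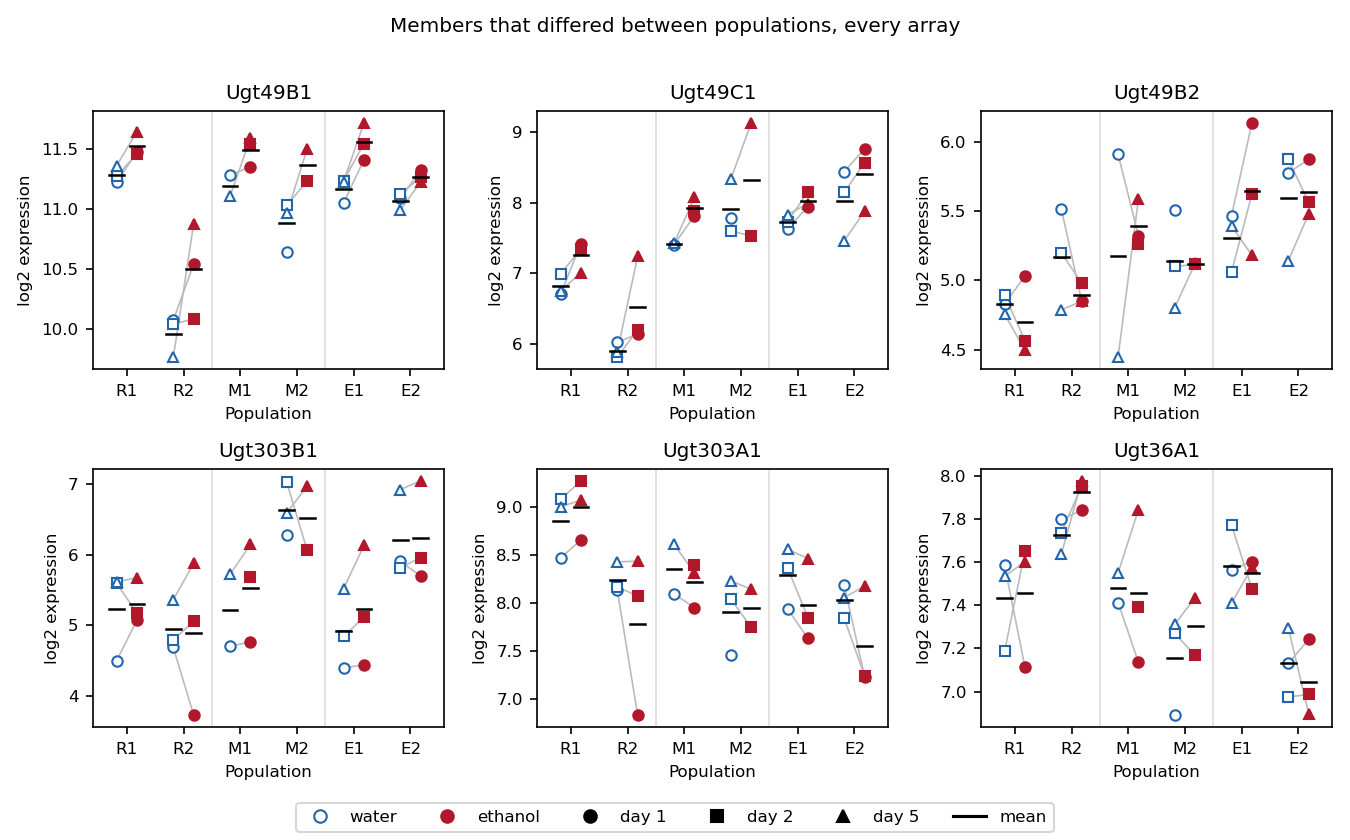
Log2 expression (vertical axes) of 6 Ugt probe sets that differed among populations, on every array, by population (horizontal axes), with symbols as in the plot of responses by array: open blue for water, filled red for ethanol, shape for the day, bars for means. The R2 arrays of Ugt49B1 lie below all R1 arrays, and 21 of the 22 M and E arrays of Ugt49C1 lie above all control arrays.

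The sum of squares of each member over the 34 arrays was divided, as a description, into extraction day, exposure, population and a remainder. The day took the largest of the named shares in 13 of the 27 members, the population in 11 and the exposure in 3. With 6 populations, 3 days and 2 exposures, a term with more groups takes a larger share even without an effect. The shares of different terms are therefore not on equal footing. The median shares were 29.6% for the day, 6.02% for exposure and 21.2% for population, and over all tested probe sets 16.3%, 5.36% and 16.6%. Exposure took 66.2% in Ugt36D1. Population took 76.9% in Ugt49C1 and 74.7% in Ugt49B1. The day took 62.8% in Ugt302E1, whose mean was 5.41, 5.52 and 6.85 on days 1, 2 and 5. The day is a term of each fit, and these shares use all arrays as labelled.

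**Figure D5:**
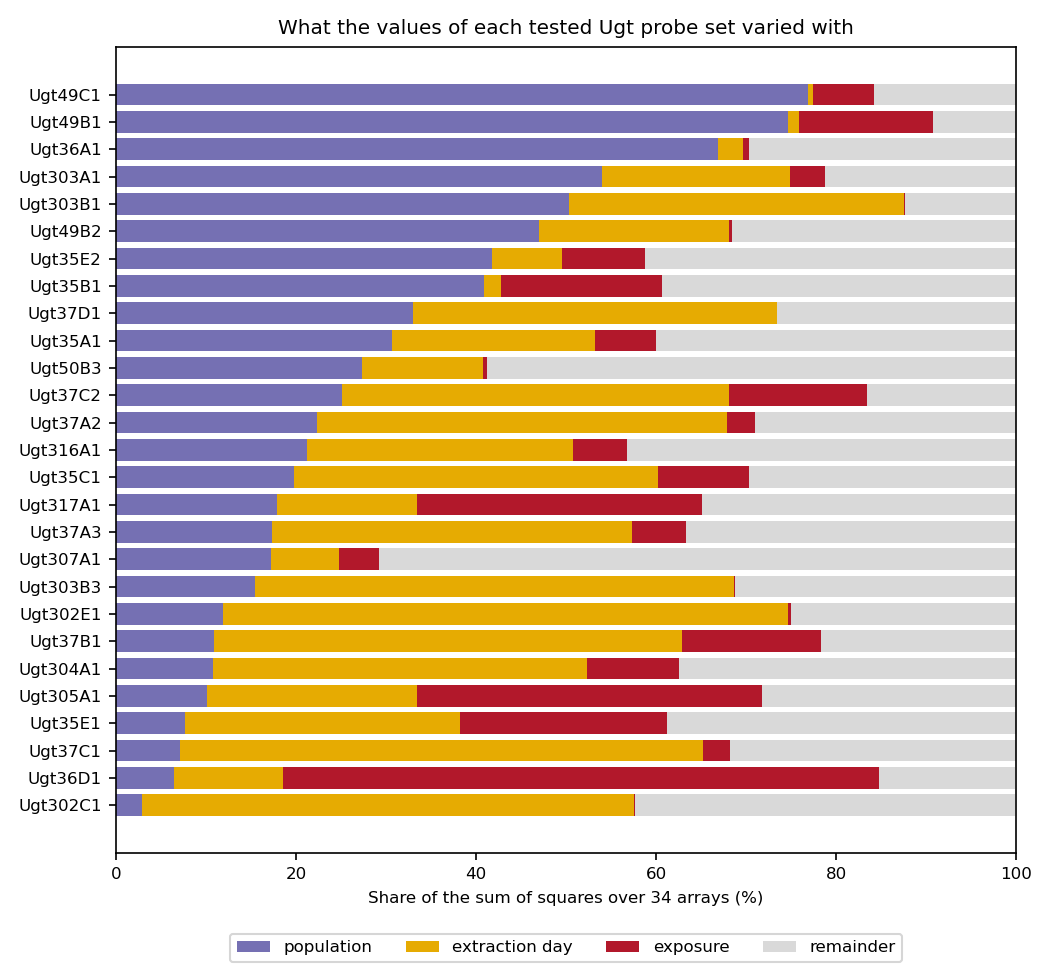
Share of the sum of squares over 34 arrays (horizontal axis, %) that went with population, extraction day and exposure, and the remainder, for each of the 27 tested Ugt probe sets (vertical axis, sorted by the population share). Ugt49C1 and Ugt49B1 are led by population at 76.9% and 74.7%, and Ugt36D1 by exposure at 66.2%.

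Genes that work beside the UGTs were counted from short lists, beside the 15.2% of all probe sets that were higher and 16.0% that were lower after ethanol. Of 8 tested genes that make or move UDP-sugars, 4 were higher and 1 lower. Galt, the uridylyltransferase of galactose breakdown, rose by 0.86 ± 0.06, and Pgm1, the phosphoglucomutase that makes glucose-1-phosphate, by 0.34 ± 0.03. The UDP-glucose dehydrogenase gene sgl rose by 0.34 ± 0.06, and UGP, the enzyme that makes UDP-glucose, was at 0.10 (adjusted p = 0.104). Of 7 tested regulators of detoxification genes, 2 were higher and none lower: Keap1, which holds back the factor Cap n collar, rose by 0.36 ± 0.05 and the nuclear receptor gene Hr96 by 0.18 ± 0.06, while cnc itself was at -0.02 (adjusted p = 0.71). Of 12 tested transporters of drugs and conjugates, 4 were higher and 2 lower. The ABC transporter genes Mdr49 and Mdr50 rose by 0.58 ± 0.12 and 0.47 ± 0.11, and the organic anion transporter gene Oatp58Da was at -0.62 ± 0.12 (adjusted p = 0.000266).

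Markers of tissues were counted in the same way, beginning with those known to express UGTs. The mean of the 4 tested midgut markers lay between 9.19 and 9.67 on water arrays and between 9.02 and 9.67 on ethanol arrays, with 1 of them, mex1, at -0.32 ± 0.06 and none higher. The 3 tested fat body markers lay between 10.4 and 10.9 and between 10.2 and 10.9, and none passed the test; the late larval Lsp2, Fbp1 and Fbp2 did not reach the filter. The 4 Malpighian tubule markers lay between 8.11 and 8.65 and between 8.12 and 8.87, with Lkr higher by 0.45 ± 0.05 and Drip by 0.17 ± 0.06. Of 8 tested haemocyte markers, 6 were lower after ethanol, led by PPO1 at -1.41 ± 0.21, and the list mean lay between 6.65 and 7.69 on water and between 6.08 and 7.15 on ethanol arrays. PPO1 had a mean of 3.55 over all arrays, below the detection level of 4, so its fall is given as a description. Whether it passed the filter only with its water arrays was not counted. Of the other lists, 1 of 5 neuron and 1 of 3 muscle markers were lower, and 1 of 4 salivary gland and 2 of 3 trachea and epidermis markers were higher. The part of these shifts in the responses of the Ugt genes was not tested.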

How the data were processed

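Expression is given as log2 values of probe sets, deposited by the authors after GCRMA and affy, per the submitters' processing notes. Their versions and the genome build are not stated in the sources used here. The unit was checked on the values. Values near the floor reflect GCRMA's background model, and a sequence difference under the probes cannot be told apart from a difference in expression. The labels state 35 hybridised samples; 34 arrays were analysed here.

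Genes of probe sets come from the platform annotation, updated by gene identifier through the RefSeq table of Release 6, used for names, arms and gene order only; 13544 of 18769 matched. Members, lists and tests were chosen with earlier results of these data known. Every tested Ugt probe set could be named, by a rule that also took called genes of 3 lists; PPO1 was named as the largest change of its marker list. R 4.3.3 and limma 3.58.1 fitted 12 group means plus extraction day to all arrays. Regimes and differences in response were tested over 6 population values, 2 per regime. All tests were two-sided. eBayes used an intensity trend, with Benjamini-Hochberg adjustment over 9729 probe sets at 0.05. Only the response over all populations and the level and response of ethanol against control populations were tried on simulated data. Per the labels, RNA of each population and exposure was extracted once per day, and the number ending each title was read as the day. Deviations from group means correlated at 0.394, 0.184 and 0.423 within days 1, 2 and 5 and at -0.196 between days. Alternatives were other filters, centring, quantile normalization, moderation and blocks, arrays or populations left out, and each exposure or day alone.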

Additional observations from a re-analysis of the deposited data

Results flagged for a closer look

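In 162 groups of 5 or 6 arrays (each tested member in each regime and exposure), 11 values stood apart from their group by Dixon's criterion, which chance does in about 1 in 20 groups. Of these, 5 were on the ethanol-exposed R2 array of day 1. There Ugt35E1 was at 3.276 against 5.262 to 6.376 on the other control arrays, Ugt35E2 at 8.437 against 9.463 to 9.945, and Ugt304A1 at 4.233 against 5.176 to 5.652. Ugt303B3 was at 5.714 against 6.647 to 7.154, and Ugt35A1 at 10.11 against 10.41 to 10.59. Ugt35E1, Ugt35E2, Ugt35A1 and Ugt304A1 belong to the same run of neighbouring genes on arm 3R.

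On the water-exposed R2 array of day 5, Ugt37B1 was at 5.792 against 4.629 to 4.969 and Ugt307A1 at 5.011 against 4.304 to 4.521. Ugt35E1 was at 5.866 against 6.488 to 6.756 on the water-exposed R1 array of day 1. Of the arrays of day 5 whose labels are in doubt, the one labelled ethanol-exposed M2 had Ugt37A3 at 4.778 against 3.684 to 3.937 and Ugt37C1 at 10.73 against 11.2 to 11.39, and the one labelled water-exposed M1 had Ugt307A1 at 4.173 against 4.426 to 4.501.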

How the results depend on the processing

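Of 1097 single-member values recomputed under the alternatives, 934 kept their direction and side of the threshold, 140 no longer passed it, 17 newly passed it and 6 uncalled values changed sign or moved beyond their error; no called value reversed. Of 39 called member results, 7 passed under every alternative run: Ugt36D1 over all populations and in the control and ethanol regimes, Ugt49B1, Ugt317A1 (tested only through its ethanol arrays) and Ugt305A1 over all populations, and Ugt49B1 between R2 and R1. The cause of the changes was not tested unless the alternative has fewer arrays or members.

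Counts of called members follow, with the share of all tested probe sets called in the same setting in parentheses. They are out of 27 tested members, or 35 with no filter and 15 with a mean of at least 6. Over all populations 7 of 15 were called with a mean of at least 6 (32.7%) and 8 without the replicate block (22.1%). With no filter, 14 of 35 were called (16.1%). Other alternatives gave 8 to 13 of 27 (18.5 to 31.8%). Without the replicate block, 3 were called in the control regime (10.6%), 3 for R2 against R1 (4.06%), 0 for M2 against M1 (1.75%) and 3 for E2 against E1 (4.63%). Leaving out a day or a population gave 3 to 6 in the control regime (6.73 to 16%), 0 to 3 in the variable (1.74 to 4.3%) and 1 to 3 in the ethanol regime (2.51 to 5.7%). Leaving out a day gave 2 to 5 for R2 against R1 (3.01 to 6.77%), 0 to 3 for M2 against M1 (0.935 to 2.65%), 1 to 7 for E2 against E1 (1.84 to 12.4%), and 5 to 11 for any difference among populations (6.67 to 21.3%). In the variable regime, 1 was called without the 8 arrays of day 5 (3.29%). In the ethanol regime, 2 were called with a mean of at least 6 (8.97%), median centring (8.47%) or robust moderation (8.35%), and 4 without the ethanol-exposed R2 array of day 1 (8.9%), an alternative added after seeing the data. Without that array, 3 were called for R2 against R1 (5.63%), 2 for M2 against M1 (3.82%) and 12 for any difference among populations (21.3%). With arrays as replicates, 8 were called for ethanol (12.4%) and 6 for variable (7.33%) against control; with population as a random block, 2 (1.6%) and 1 (0.833%). For R2 against R1, no filter (4.31%) and a mean of at least 6 (7.38%) each gave 5; that mean gave 0 for M2 against M1 (3.22%) and 3 for E2 against E1 (10.1%). Water arrays alone gave 1 for R2 against R1 (1.9%), 2 for E2 against E1 (3.85%) and 5 for any difference (6.04%). Ethanol arrays alone gave 5 (3.25%), 1 (2.15%) and 7 (6.64%), and 0 for M2 against M1 (0.49%). The number of arrays and of populations limits precision. The day 1 values without R2 and the counts over 25 members were also added after seeing the data.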
